A study of Mus musculus with 6 samples.

Results

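The 10 genes described here are 5 members of the CCN family (Ccn1, Ccn2, Ccn3, Ccn4 and Ccn5) and 5 genes of the YAP pathway (Yap1, its DNA-binding partner Tead1, and the regulators Amotl1, Amotl2 and Ajuba). All probe sets that the platform annotation assigns to these symbols were taken, which gave 19 of the 45037 probe sets on the arrays, and 0 further probe sets listed a member beside another gene. The genes were chosen by family and pathway with the differences between hypoxia and normoxia on these same arrays already known. Their differences in this contrast are therefore a description, and the adjusted p-values printed for them say only where they stood in the fit over all probe sets. The arrays carry RNA of HL-1 cells, an atrial cardiomyocyte line of mouse that can be passaged in culture. Confluent cells were held for 8 hours at 1% oxygen (hypoxia, 3 arrays) or at 21% oxygen (normoxia, 3 arrays), with no gene altered in either group. The comparison asks how these cells respond to low oxygen. HL-1 is a single transformed line, and nothing in the labels says that the 3 samples of a group were grown separately. The p-values thus reflect how far these samples scatter, and that scatter may be technical.

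CCN proteins are secreted, cysteine-rich proteins of the matricellular kind: they sit in the extracellular matrix, bind integrins and proteoglycans, and alter how cells adhere, migrate and respond to growth factors. YAP, encoded by Yap1, and its relative TAZ are transcriptional coactivators that act on DNA through TEAD factors. The Hippo kinases MST and LATS phosphorylate YAP and keep it out of the nucleus, angiomotins (the AMOT family) hold it at cell junctions, and Ajuba, a LIM domain protein, binds LATS kinases and restrains them. Ccn1, Ccn2 and Amotl2 are widely used as readouts of YAP and TEAD activity. In the heart, Yap1 is required for cardiomyocyte proliferation before birth, and Ccn2 is best known from fibrosis.

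The promoters of members were searched for the letters CATTCC, which TEAD factors recognise and which read from the opposite strand as GGAATG. RefSeq windows of GRCm38.p6 were at hand for 5 of the 10 members, namely Ccn1, Amotl1, Amotl2, Ajuba and Yap1. In the 250 bases before the annotated start, CATTCC in either orientation occurred in 4 of them, and in 12.6% of all 32851 windows of that length. Ccn1 and Amotl2 are members already known as YAP and TEAD readouts, so nothing is read from this count. The window of Ccn1, the member with the largest difference, is shown whole (chr3:145649986-145650235, minus strand, printed in the direction of transcription, with the motif in capitals).
Ccn1: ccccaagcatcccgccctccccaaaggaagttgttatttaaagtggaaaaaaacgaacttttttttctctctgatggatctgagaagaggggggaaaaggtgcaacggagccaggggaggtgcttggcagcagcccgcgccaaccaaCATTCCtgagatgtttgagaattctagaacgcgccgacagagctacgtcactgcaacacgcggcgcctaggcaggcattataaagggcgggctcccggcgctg
The motif began 103 bases before the start of Ccn1, 65 bases before that of Amotl2, 186 and 164 bases before that of Ajuba and, as GGAATG, 141 bases before that of Yap1.

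The matches of the other 3 genes are shown with 12 bases on either side, 30 bases in all, so that their flanks can be compared (Amotl2 at chr9:102717727-102717756, plus strand; Ajuba at chr14:54577830-54577859 and chr14:54577808-54577837, minus strand; Yap1 at chr9:8004720-8004749, minus strand).
Amotl2: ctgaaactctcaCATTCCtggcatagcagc
Ajuba, first match: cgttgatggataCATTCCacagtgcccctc
Ajuba, second match: tgcccctccgcgCATTCCaactgtaaacaa
Yap1: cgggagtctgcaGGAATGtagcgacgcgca
The longer string ACATTCCT, which reads from the opposite strand as AGGAATGT, was found in Ccn1, Amotl2 and Yap1 and in 1.1% of all windows. It was found both in genes whose signal was higher in all 3 hypoxia arrays (Ccn1 and Amotl2) and in one whose groups overlapped (Yap1). The core of the hypoxia response element was searched as ACGTG and as GCGTG on both strands. ACGTG had 0 matches for Ccn1, Amotl2 and Ajuba, 1 for Amotl1 and 2 for Yap1 (16.6% of all windows hold it). The 2 matches of Yap1, at 163 and 162 bases before the start, overlap in a single stretch, CACGTG, read once on each strand. GCGTG had 1 match each for Ccn1 and Yap1 and 0 for the other 3 (28.2%). The CArG box, which SRF binds, had 0 matches in these 5 windows and was found in 1.47% of all. The windows of Amotl1, Amotl2 and Yap1 overlap the annotated span of their own gene, whose outermost start lies further upstream. A match is a string of letters and no evidence of binding, and a missing match concerns these windows alone.

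Signals are the deposited MAS5 intensities on a linear scale, and the brighter part of the probe sets was tested, those averaging more than the median probe set on the log2 scale (a geometric mean of 14.1). Of the 19 member probe sets, 12 passed, and these covered 7 genes. Ccn3, Ccn5 and Amotl1 had no probe set above that level. A probe set can pass through the group in which it is brighter, so the 12 are not all members. The median signal per array ranged from 15.0 to 19.0, and a trimmed mean of 99.5 on every array shows that they were scaled alike. All 8 atrial markers, Myl7 and Myl4 among them, were above the filter, with summed signals of 26718.9 to 29774.9 in hypoxia and 28322.5 to 30625.9 in normoxia. Of 8 fibroblast markers 3 were above it, the collagens Col1a1, Col1a2 and Col3a1, with at most 93.5 on any array. Pdgfra, Dcn, Lum, Thy1 and Tcf21 were below it. The summed signal of the fibroblast list ran from 138.3 to 253.8 in hypoxia and from 161.4 to 178.9 in normoxia. That of 6 endothelial markers ran from 157.1 to 235.8 in hypoxia and from 172.8 to 223.7 in normoxia. Pecam1, Cdh5, Tek and Emcn were below the filter. Kdr (means of 72.8 in hypoxia and 63.5 in normoxia) and Vwf (98.7 in hypoxia and 98.5 in normoxia) were above it. No marker was listed at 0. Of the 30 markers only those above the filter were tested, and 0 of these passed. In RNA from a whole culture, fewer cells of a type and less RNA per cell cannot be told apart.

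Ccn1 rose in hypoxia. This gene, also called Cyr61, encodes a heparin-binding CCN protein that signals through integrins and is induced quickly by growth factors and stretch. Its brightest probe set, 1416039_x_at, read 331.9, 517.3 and 566.4 on the hypoxia arrays, against 238.5, 143.7 and 178.2 on the normoxia arrays. The groups did not overlap, and the lowest hypoxia array (replicate 1) and the highest normoxia array (replicate 1) were nearest to each other. The means were 472 ± 124 in hypoxia and 187 ± 48.0 in normoxia (± SD over 3 arrays, as for all means below), a 2.52-fold difference with a 95% confidence interval of 1.73 to 3.66 (log2 difference, hypoxia minus normoxia, 1.33, SE 0.24, adjusted p = 0.0485).

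A second probe set of Ccn1, 1438133_a_at, gave a similar picture with a tighter hypoxia group. It read 258.2, 301.2 and 307.3 in hypoxia, against 150.5, 83.8 and 93.0 in normoxia. Again every hypoxia array was above every normoxia array, and normoxia replicate 1 was the highest of its group. The means were 289 ± 26.8 in hypoxia and 109 ± 36.1 in normoxia, a 2.73-fold difference (interval 1.93 to 3.88, log2 fold change 1.45, SE 0.23, adjusted p = 0.0212).

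The remaining probe sets of Ccn1 were dim. Both were designed from the same source sequence, so they are not independent readings. 1442340_x_at read 31.1, 28.6 and 35.9 in hypoxia, against 23.2, 14.0 and 17.0 in normoxia (log2 fold change 0.84, SE 0.33, adjusted p = 0.39). 1457823_at read 26.7, 25.7 and 31.1 in hypoxia, against 25.5, 3.5 and 3.6 in normoxia. Its geometric mean of 13.8 left it just under the filter. On all 4 Ccn1 probe sets, then, the 3 hypoxia arrays lay above the 3 normoxia arrays, and normoxia replicate 1 was the highest normoxia array, in 1457823_at within 0.2 units of hypoxia replicate 2. The suffix x_at marks probe sets with probes that may also match other sequences, and a_at marks those that match several transcripts of one gene.

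The calls of Ccn1 were lost under several alternatives. Without the trend of variance on signal the adjusted p was 0.128 for 1438133_a_at and 0.20 for 1416039_x_at. With 1 array left out at a time, 1438133_a_at passed without hypoxia replicate 3 and without normoxia replicate 1. The call was lost when hypoxia replicate 1 (adjusted p = 0.116) or 2 (0.0997) was dropped, and when normoxia replicate 2 (0.0754) or 3 (0.129) was dropped. 1416039_x_at passed without normoxia replicate 1 only, and had adjusted p = 0.0638 without hypoxia replicate 1, 0.177 and 0.0964 without hypoxia replicates 2 and 3, and 0.162 and 0.221 without normoxia replicates 2 and 3. Over these 6 fits the log2 fold change ran from 1.28 to 1.71 for 1438133_a_at and from 1.16 to 1.57 for 1416039_x_at.

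**Figure D1:**
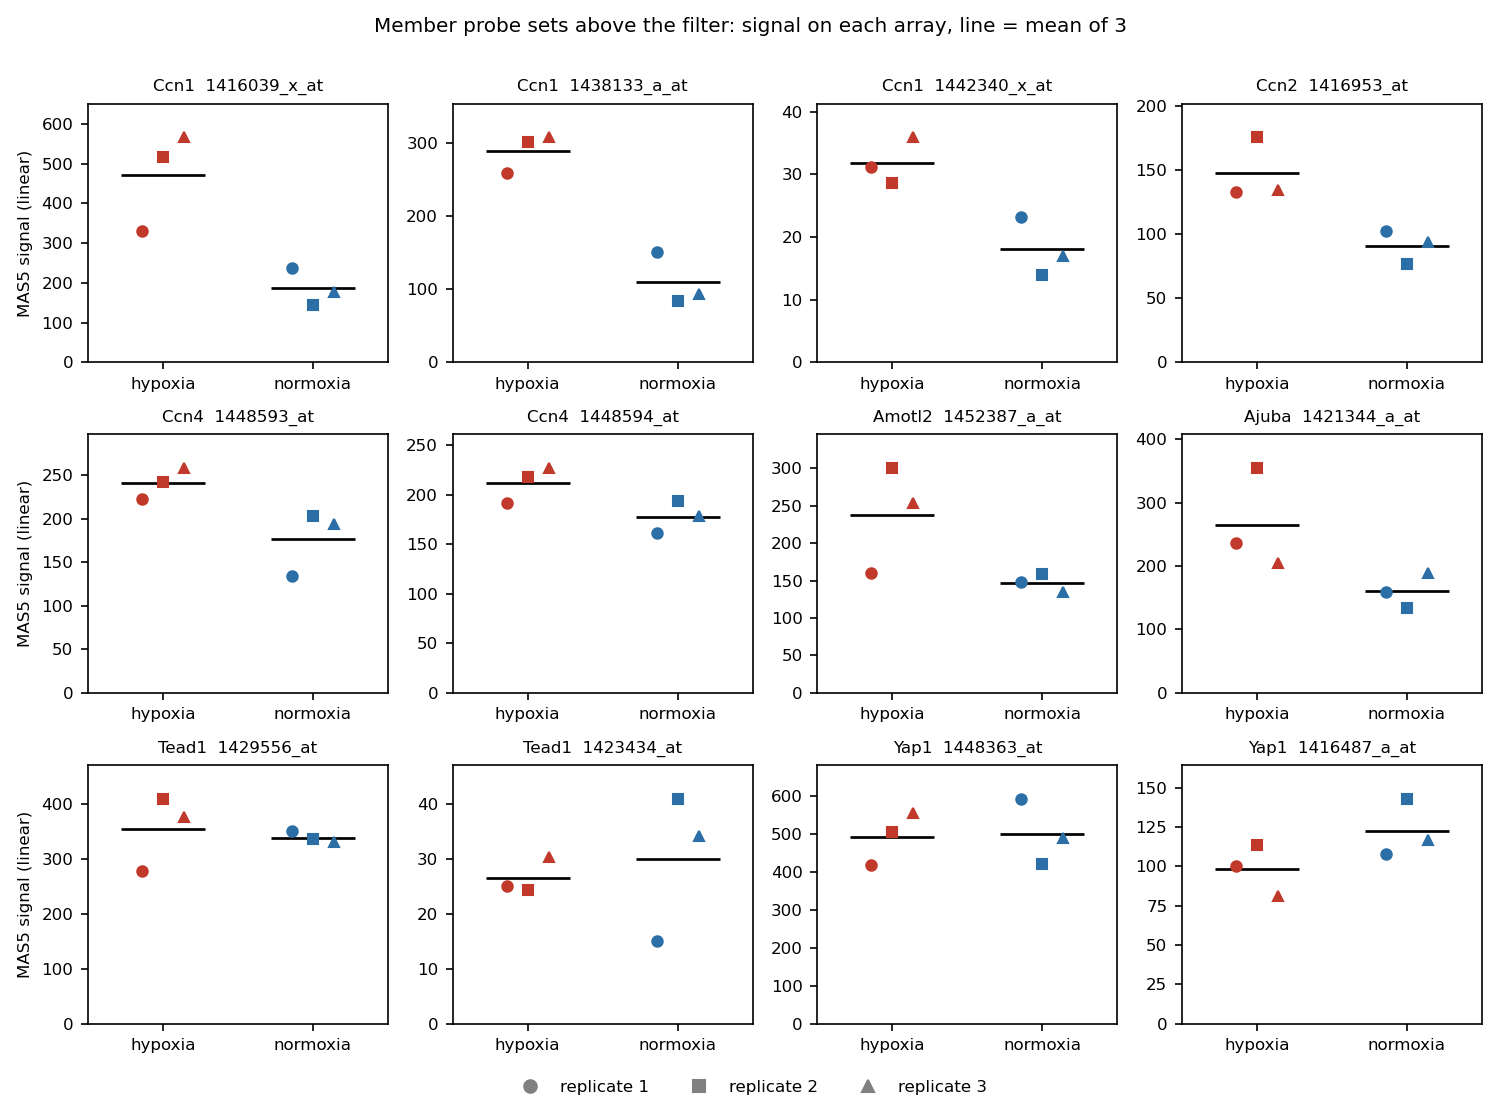
MAS5 signal (linear, axes from 0) of the 12 member probe sets above the filter, hypoxia left and normoxia right, with 1 point per array and a line at the mean of 3. In the 3 Ccn1 panels and those of Ccn2, Amotl2, Ajuba and Ccn4 1448593_at every hypoxia point is above every normoxia point, whereas the groups overlap in the panels of Tead1, Yap1 and Ccn4 1448594_at.

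Over the members, 2 of the 12 probe sets tested were called at an adjusted p under 0.05, both of Ccn1 and both higher in hypoxia. Among all 22518 probe sets tested, 0.608% were called and 0.533% were called higher. A further 5 member probe sets had an unadjusted p under 0.05 without passing the adjustment, and 10.9% of all probe sets tested had such a p. In 7 of the 12 the hypoxia arrays all lay above the normoxia arrays, which held for 7.48% of all probe sets tested, and in 0 all lay below. Over either direction, 16.5% of all probe sets tested had groups that did not overlap. As the genes were chosen on this contrast, these counts are given beside the background and nothing is read from them.

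Ccn2, also known as Ctgf, encodes connective tissue growth factor, a product of TGF-beta and YAP signalling that promotes matrix deposition. Its single probe set read 132.7, 175.3 and 134.5 in hypoxia, against 102.3, 76.8 and 93.5 in normoxia. The groups did not overlap, and hypoxia replicate 2 was the highest. The means were 148 ± 24.1 in hypoxia and 90.9 ± 13.0 in normoxia. The log2 fold change was 0.70 (SE 0.19, 95% interval 0.27 to 1.13), short of the threshold (adjusted p = 0.207). The interval covers differences from 1.20-fold to 2.19-fold.

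Ccn4, also known as Wisp1, was described as a target of WNT and beta-catenin signalling. Its probe set 1448593_at read 223.0, 242.4 and 257.9 in hypoxia, against 134.5, 202.8 and 193.9 in normoxia. The groups did not overlap, and normoxia replicate 1 lay well below the other normoxia arrays. The log2 fold change was 0.47 (SE 0.19, adjusted p = 0.409), and 0.28 without normoxia replicate 1. The other probe set, 1448594_at, read 191.5, 218.3 and 226.9 in hypoxia, against 160.9, 193.5 and 178.4 in normoxia, so that hypoxia replicate 1 fell below normoxia replicate 2. Its log2 fold change was 0.26 (SE 0.16, interval -0.09 to 0.61, adjusted p = 0.592). In both Ccn4 probe sets normoxia replicate 1 was the lowest array, whereas in Ccn1 and Ccn2 it was the highest of the normoxia group.

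Ccn3 and Ccn5 were below the filter, Ccn3 far below it (geometric means of 2.38 and 2.32) and Ccn5 just below it (13.2). Ccn3 (Nov), which opposes Ccn2 in several matrix settings, had signals between 0.4 and 6.8 in hypoxia and between 0.6 and 9.0 in normoxia over its 2 probe sets. Ccn5 (Wisp2), the family member without the C-terminal cysteine knot domain and known from mouse hearts as an inhibitor of hypertrophy, read 3.4, 14.1 and 22.8 in hypoxia, against 21.6, 10.3 and 21.7 in normoxia. The groups overlapped in all 3 of these probe sets. No difference was detectable for either gene at these signals.

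**Figure D2:**
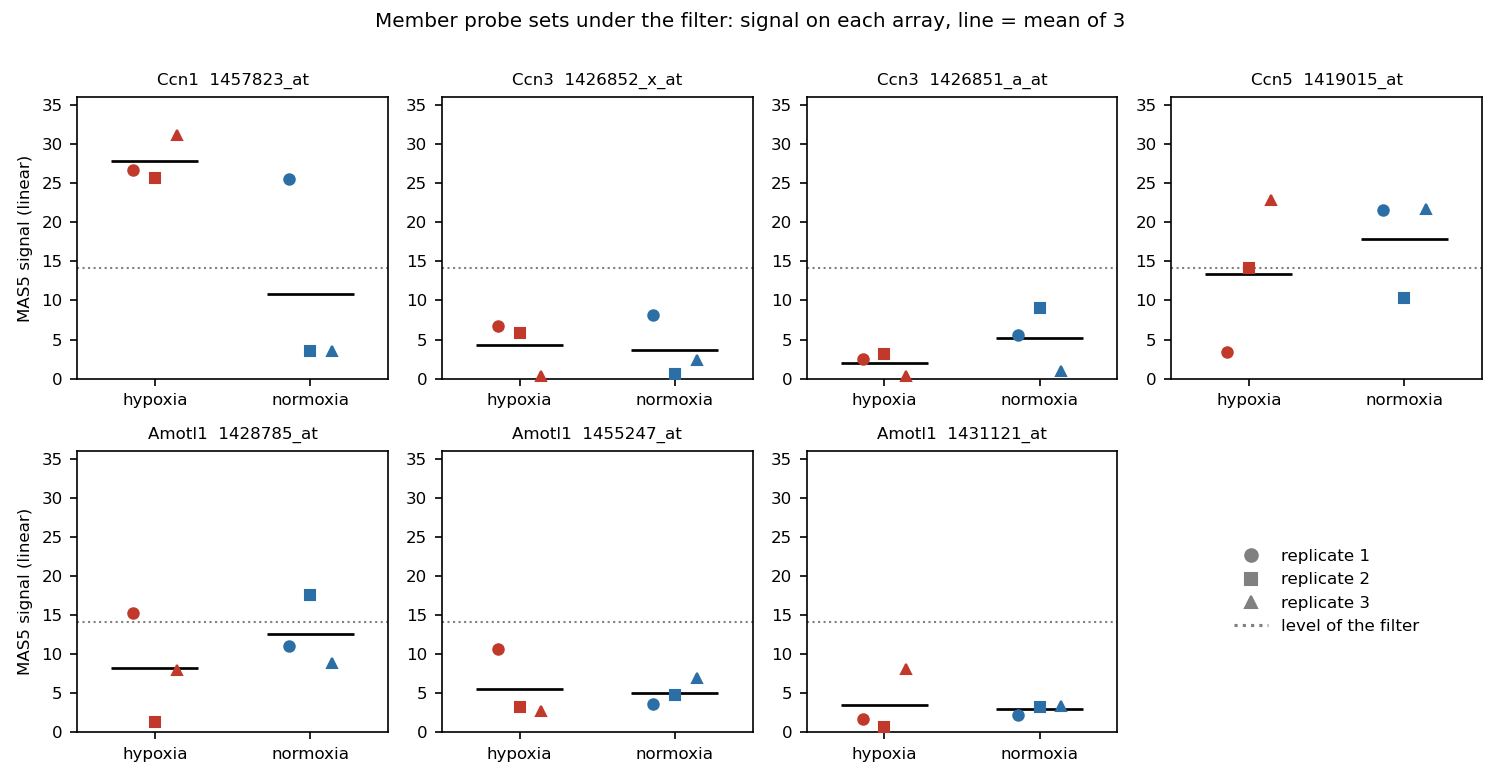
MAS5 signal (linear, axes from 0) of the 7 member probe sets under the filter, hypoxia left and normoxia right, with 1 point per array, a line at the mean of 3 and a dotted line at the level of the filter, 14.1. The groups overlap in the 6 panels of Ccn3, Ccn5 and Amotl1, while in Ccn1 1457823_at normoxia replicate 1 lies at the level of the hypoxia arrays and the other normoxia arrays near 3.5.

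Among the regulators of YAP, Amotl2 and Ajuba had higher signals in hypoxia without passing the test. Amotl2, an angiomotin of cell junctions that binds YAP and is itself a YAP target, read 159.7, 300.4 and 253.5 in hypoxia, against 148.1, 159.0 and 134.4 in normoxia. The groups were separated only by the gap between hypoxia replicate 1 and normoxia replicate 2, which nearly coincided. The means were 238 ± 71.6 in hypoxia and 147 ± 12.3 in normoxia, and the log2 fold change was 0.65 (SE 0.23, interval 0.13 to 1.16, adjusted p = 0.342). Without hypoxia replicate 1 it was 0.91, and over the 6 fits with 1 array left out its lowest value was 0.45.

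Ajuba read 235.7, 354.3 and 204.7 in hypoxia, against 158.7, 133.5 and 188.8 in normoxia. No array of one group reached the other, and hypoxia replicate 2 stood above the other hypoxia arrays, as it did for Ccn2 and Amotl2. The means were 265 ± 79.0 in hypoxia and 160 ± 27.7 in normoxia, with a log2 difference of 0.70 (SE 0.23, interval 0.19 to 1.20, adjusted p = 0.286). The lowest value with 1 array left out was 0.47. Amotl1, the angiomotin relative of Amotl2, had 3 probe sets with signals between 0.7 and 15.3 in hypoxia and between 2.2 and 17.6 in normoxia. The groups overlapped in each of the 3.

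No probe set of the coactivator or its DNA-binding partner passed the test, and the brighter one of each gene had a value close to 0. Yap1 read 418.3, 503.8 and 555.1 in hypoxia, against 592.4, 419.5 and 489.2 in normoxia, on probe set 1448363_at. The ranges of the groups overlapped over most of their length, and the log2 fold change was -0.02 (SE 0.17, interval -0.40 to 0.36, adjusted p = 0.978). Its sign turned to positive (0.092) when each array was centred on its median, and turned in some fits with 1 array left out. The dimmer probe set 1416487_a_at read 100.2, 113.3 and 81.1 in hypoxia, against 107.5, 142.9 and 116.7 in normoxia. Hypoxia replicate 2 lay above normoxia replicate 1, and the log2 fold change was -0.32 (SE 0.20, interval -0.76 to 0.12, adjusted p = 0.597). It was -0.19 without hypoxia replicate 3, -0.20 without normoxia replicate 2 and -0.21 after median centring.

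Tead1, a TEAD factor with a known role in muscle and heart gene expression, read 276.9, 409.3 and 375.3 in hypoxia, against 349.8, 336.0 and 329.9 in normoxia, on probe set 1429556_at. The normoxia arrays lay within the range of the hypoxia arrays, and the log2 fold change was 0.045 (SE 0.17, interval -0.33 to 0.42, adjusted p = 0.943). With array weights or without hypoxia replicate 2 or 3 its sign turned to negative. The dim probe set 1423434_at read 25, 24.4 and 30.4 in hypoxia, against 15.0, 41.0 and 34.2 in normoxia (log2 fold change -0.06, SE 0.40, interval -0.95 to 0.83, adjusted p = 0.967). Its sign turned to positive under quantile normalization, median centring and cyclic loess, and in some fits with 1 array left out. The intervals of the brighter probe sets of Yap1 and Tead1 leave room for changes of up to about 1.3-fold, so a small change in transcript level was not detectable here. Transcript arrays do not measure the phosphorylation or the location of the YAP protein.

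**Figure D3:**
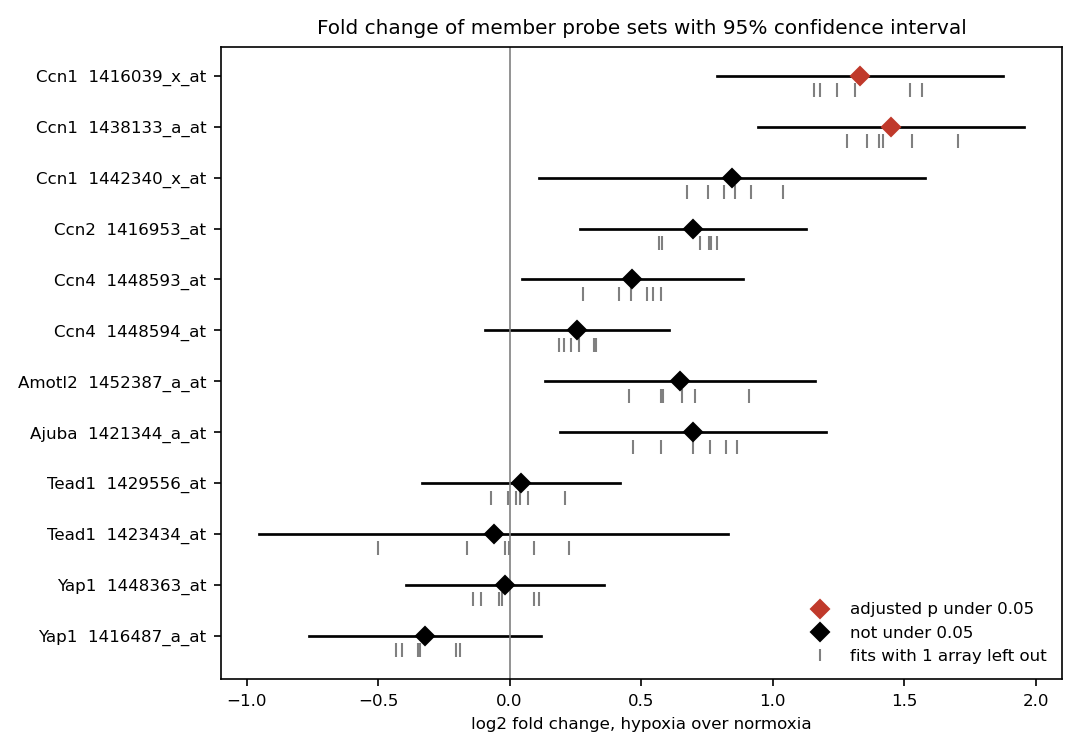
Log2 fold change of hypoxia over normoxia for the 12 member probe sets above the filter, with the 95% confidence interval as a line and the 6 fits with 1 array left out as ticks. The 2 Ccn1 probe sets in red passed the test, the intervals of the third Ccn1 probe set and of Ccn2, Ccn4 1448593_at, Amotl2 and Ajuba lie above 0 without passing the adjustment, and those of Tead1, Yap1 and Ccn4 1448594_at span 0.

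**Figure D4:**
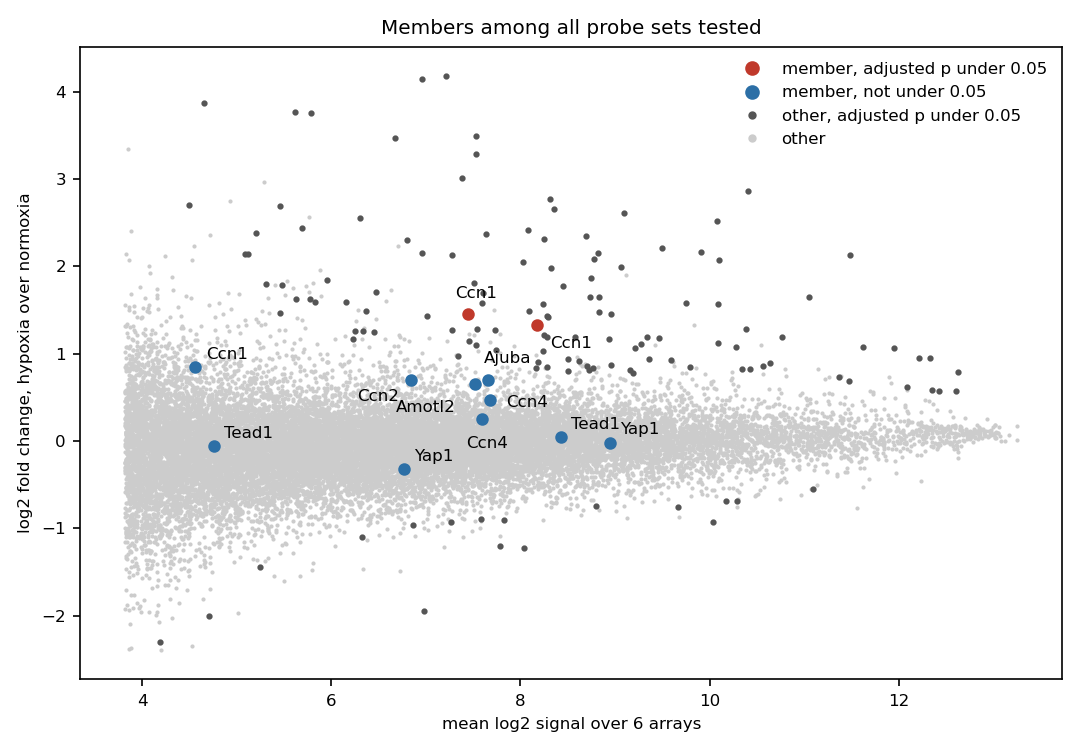
Log2 fold change of hypoxia over normoxia against the mean log2 signal of all 22518 probe sets tested, with the members named. The 2 Ccn1 probe sets in red had log2 fold changes of 1.33 and 1.45 among the 137 probe sets called (dark), the members in blue did not pass, and differences spread more widely at low signal.

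The other genes of the pathway were read by 1 probe set per gene, the brightest above the filter, and compared with 11332 genes tested in all, of which 0.75% were called. The median log2 fold change over all of these genes was -0.04. Over 7 lists that together held 105 measured genes, 0 were called and 16 had an unadjusted p under 0.05 (12.4% of all genes tested had one). Of 8 reference genes of the hypoxia response 7 rose, 0 fell and the list median was 2.39. That list, like the others, was chosen with earlier results of these data known, so its calls are a description. Ak4, a mitochondrial adenylate kinase, rose by 4.18 on the log2 scale (adjusted p = 0.000659), Bnip3, a mitophagy receptor, by 2.87 (adjusted p = 0.00138, and 0.0550 without the variance trend) and Slc2a1, the glucose transporter GLUT1, by 2.08 (adjusted p = 0.00038). Vegfa was the gene of this list that did not pass (1.23, adjusted p = 0.0924). Array weights (adjusted p = 0.0155), median centring (0.0304) and leaving out hypoxia replicate 3 (0.0403) each brought it past the threshold.

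In the Hippo kinase cascade, 22 of 27 genes were measured, 0 passed in either direction and the median was -0.009, with 9 of the 22 above 0. Slmap, a subunit of the phosphatase complex that opposes the MST kinases and the brightest of the list, had a value next to 0 (log2 difference -0.00078, SE 0.14, adjusted p = 0.999), whose sign turned after median centring and in fits with 1 array left out. The groups did not overlap for 1 gene that was higher (Stk4, which encodes the kinase MST1) and for 2 that were lower in hypoxia (Fat4 and Map4k5), all named after their values were seen. Over all genes tested, 8.16% were higher and 9.91% lower in this sense. Stk4 read 546.0, 504.9 and 554.6 in hypoxia, against 441.2, 376.0 and 498.6 in normoxia, a log2 difference of 0.30 (SE 0.14, adjusted p = 0.50). The kinases that phosphorylate YAP directly did not pass: Lats1 showed a log2 difference of 0.20 (adjusted p = 0.667) and Lats2, itself a YAP target, one of 0.41 (adjusted p = 0.583). Both were named after their values were seen.

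Of the partners and regulators of YAP, 23 of 28 genes were measured, 0 passed and the median was -0.0076. The brightest, the 14-3-3 protein Ywhae, showed a log2 difference of -0.31 (SE 0.20, adjusted p = 0.617). Leaving out 1 array moved it over a range of -0.49 (without hypoxia replicate 2) to -0.10 (without hypoxia replicate 3), with -0.48 and -0.18 without normoxia replicates 1 and 2, and median centring gave -0.20. Wwtr1, which encodes TAZ, read 535.6, 601.5 and 596.0 in hypoxia, against 492.8, 439.9 and 480.9 in normoxia. It was the single gene of this list with all hypoxia arrays on top, at a log2 difference of 0.29 (SE 0.13, adjusted p = 0.438). Pard3, a polarity protein, was the single gene with all hypoxia arrays below (-0.47, SE 0.15, adjusted p = 0.267). Over all genes tested, 8.16% had all hypoxia arrays on top and 9.91% had them all below. Of the TEAD factors beside Tead1, Tead2 showed a log2 difference of -0.77 with a wide error (SE 0.44, adjusted p = 0.571) and Tead3 one of 0.0042 (SE 0.21), while Tead4 was under the filter. These 5 genes other than Ywhae were named after their values were seen.

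The signature of YAP and TEAD targets, without the members, had 14 of its 19 genes measured. None was called, the smallest adjusted p was 0.443, and the median was 0.19 with 9 of 14 above 0. In 0 of the 14 were the groups separate, in either direction. Over all genes tested, 8.16% were separate and higher and 9.91% separate and lower. Ankrd1, a cardiac ankyrin repeat protein of the sarcomere and nucleus and the brightest of the list, read 1606.9, 2330.8 and 3352.3 in hypoxia, against 2249.8, 925.1 and 1275.4 in normoxia. Normoxia replicate 1 lay within the hypoxia range, and the log2 fold change was 0.75 (SE 0.32, adjusted p = 0.443), with 1.10 without normoxia replicate 1, 0.46 without normoxia replicate 2 and 0.48 without hypoxia replicate 3. The receptor kinase Axl, named after its values were seen, had 0.53 (SE 0.26, adjusted p = 0.515).

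Receptors that CCN proteins bind had 10 of 14 genes measured, 0 called and a median of 0.079. Integrin beta 1, Itgb1, was the brightest and showed a log2 difference of 0.20 (SE 0.11, adjusted p = 0.576), and 0.31 after median centring. Sdc4, a heparan sulfate proteoglycan of adhesion sites, was the single receptor whose groups did not overlap, with 123.1, 112.3 and 86.9 in hypoxia, against 79.3, 77.6 and 51.9 in normoxia (log2 fold change 0.64, SE 0.23, adjusted p = 0.352). Of all genes tested, 8.16% were higher in hypoxia without overlap. The integrin alpha subunit Itgav, a shared partner of several CCN proteins, had 0.54 (SE 0.19, adjusted p = 0.337). Both were named after their values were seen. Of the other matricellular proteins 6 of 17 were measured and 0 called, with a median of -0.41. Of the 6, 5 were below 0, and for 2 of them, Thbs4 (a thrombospondin) and the dim Fbln5, all hypoxia arrays lay below the normoxia arrays. This held for 9.91% of all genes tested. Thbs4 had -0.35 (SE 0.16, adjusted p = 0.476) and Fbln5 -0.61 (SE 0.31, adjusted p = 0.52), both named after their values were seen. Sparc, the brightest, had 0.36 (SE 0.19, adjusted p = 0.531), with 0.15 without normoxia replicate 1, 0.22 without hypoxia replicate 3 and 0.19 with array weights. Ccn6, the sixth CCN gene, was under the filter.

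Genes of SRF and its MRTF coactivators, another route to Ccn1 and Ccn2 through actin, had 20 of 21 genes measured and 0 called (median 0.076). The groups did not overlap for 7 of the 20, all higher in hypoxia, set against 8.16% of all genes. These 7, named after their values were seen, were Tpm4, Tagln, Actg1, Cnn1, Srf, Vcl and Tpm1. Their log2 fold changes were small: Tpm4, a tropomyosin of the cytoskeleton, had the largest at 0.49 (SE 0.12, adjusted p = 0.143), Cnn1 had 0.49 (SE 0.17), and Tpm1 the smallest at 0.24 (SE 0.11). Srf itself read 215.4, 256.8 and 266.3 in hypoxia, against 186.1, 187.7 and 195.3 in normoxia (0.37, SE 0.15, adjusted p = 0.412). The brightest of the list, Acta2, had 0.073 (SE 0.11, adjusted p = 0.84), with its sign turned under quantile normalization, cyclic loess and array weights and without hypoxia replicate 3. Tagln, Cnn1 and Acta2 are also smooth muscle markers. Myh11, the other smooth muscle marker read, was under the filter and at most 10.9 on any array. The summed signal of the 4 smooth muscle markers, mostly from Acta2 and Tagln, ran from 12105.5 to 15066.2 in hypoxia and from 11311.8 to 13212.2 in normoxia. Its part in the values of this list was not tested.

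TGF-beta ligands, receptors and SMADs, upstream of Ccn2, had 13 of 16 genes measured and 0 called (median 0.17). The groups were separate for 3 genes that were higher (Skil, Smad3 and Tgfbr1) and 3 that were lower in hypoxia (Tgfbr3, Ltbp1 and Smad2), all named after their values were seen, beside 8.16% and 9.91% of all genes. Skil, a repressor of SMADs and an early TGF-beta target, had the highest value of the 13 at 0.56 (SE 0.15, adjusted p = 0.193). Tgfbr3, the co-receptor betaglycan, had -0.65 (SE 0.16, adjusted p = 0.152). The lowest value, -1.69, was that of Tgfb1, whose groups overlapped (SE 0.92, adjusted p = 0.55). Tgfb1 was also named after its values were seen. The brightest gene, the latent TGF-beta binding protein Ltbp3, had 0.44 (SE 0.20, adjusted p = 0.456), and 0.27 without hypoxia replicate 3.

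**Figure D5:**
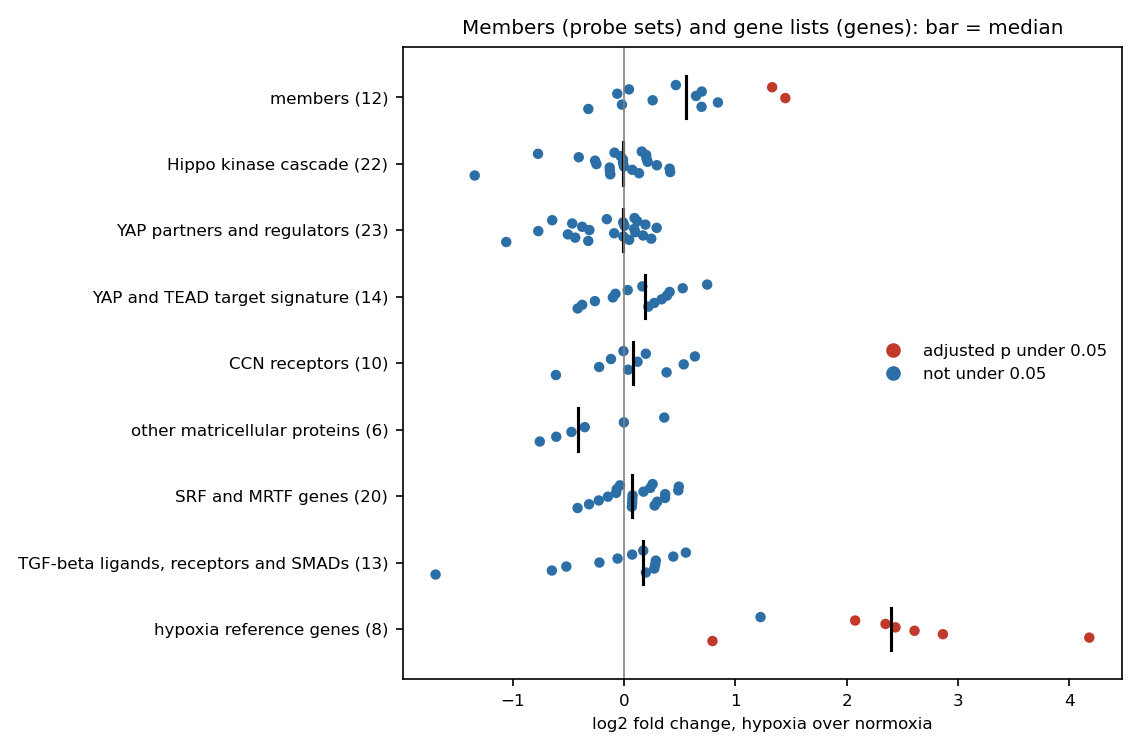
Log2 fold change of hypoxia over normoxia for the 12 member probe sets and for the measured genes of 8 lists, with 1 point each, red where the adjusted p was under 0.05 and a bar at the median (the number of points in brackets). Calls appear among the members (Ccn1) and the hypoxia reference genes. The medians of the 7 pathway lists lie between -0.41 and 0.19 and that of the members, chosen on these values, at 0.56. All 8 lists were also chosen with earlier results of these data known.

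The genes whose pattern over the 6 arrays lay closest to that of Ccn1 1416039_x_at were Wnk3, Plcxd2, Lta4h, Ercc5 and Cd68. Likeness was the root mean square difference of log2 signals after each gene was centred on its own mean, and was 0.19 for Wnk3 and 0.25 for Cd68, against a median of 0.79 over 11332 genes. Wnk3, a kinase that regulates chloride cotransporters, read 60.1, 69.5 and 84.2 in hypoxia, against 32.0, 23.8 and 33.1 in normoxia (log2 fold change 1.27, adjusted p = 0.0612). Lta4h, which makes leukotriene B4, passed the test, and the other 4 did not (log2 fold change 1.19, SE 0.15, adjusted p = 0.0074). Cd68, a macrophage marker of the immune list, read 39.3, 49.2 and 43.4 in hypoxia, against 25.3, 18.8 and 16.5 in normoxia (adjusted p = 0.157). The other macrophage genes of that list averaged lower in hypoxia: Adgre1 had means of 20.9 in hypoxia and 23.8 in normoxia (log2 difference -0.22, adjusted p = 0.855), and Lyz2, under the filter, 9.20 in hypoxia and 15.5 in normoxia. The leukocyte gene Ptprc was at most 6.9 on any array, and the summed signal of the 4 immune markers ran from 62.7 to 95.2 in hypoxia and from 52.8 to 70.4 in normoxia. Its part in the values of Ccn1 was not tested.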

How the data were processed

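The deposited values are intensities, a single number for each probe set on each array, which the authors made with MAS5 per the submitters' processing notes. The version and options of MAS5 are unknown here. Zeros (10 values) were raised to 0.1, the lowest positive signal, ahead of the log2 transformation. The groups were contrasted in limma 3.58.1 under R 4.3.3 (lmFit, eBayes with trend, two-sided, no covariates) over the 22518 probe sets above the median mean log2 signal, with Benjamini-Hochberg adjustment over all of them and a call below 0.05. Differences run hypoxia minus normoxia on the log2 scale, with limma's moderated SE. The procedure was tested on simulated data. Exact permutation of 3 against 3 arrays cannot go below p = 0.1, so calls borrow the spread of other probe sets. The number of arrays limits the precision.

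Names came from the platform annotation (34945 probe sets with 1 symbol, 932 with several, 9160 with none). A gene of a list was represented by its brightest probe set above the filter, and 7 list genes were not analysed here. The members and lists were chosen with earlier results of these data known. The rule for names took every member probe set, up to 3 called genes and the brightest uncalled gene of each list, and the 5 genes closest to Ccn1. Promoter windows are RefSeq's on GRCm38.p6. Alternatives were quantile normalization, median centring, cyclic loess, an offset of 2.9, other filters, eBayes without trend or robust, weights per array, a block on replicate number, and each array left out.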

Additional observations from a re-analysis of the deposited data

How the results depend on the processing

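Without the trend of variance on signal, 18 probe sets were called and 0 member probe sets, against 137 and 2 with it. With array weights 437 were called. With the replicate number as a block 105 were called, and 1 member probe set (Ccn1 1438133_a_at, adjusted p = 0.0449, against 0.0968 for 1416039_x_at). For a hypoxia and a normoxia array of the same number, the correlations of their deviations from the group means were -0.08, 0.21 and -0.14 (replicates 1, 2 and 3). The arrays of replicate 2 were each other's best match, and those of replicates 1 and 3 were not. Values from so few arrays cannot decide whether the numbers carry a pairing. With 1 array left out, 39 to 200 probe sets and 0 to 2 member probe sets were called. The other alternatives called 130 to 183 and 2. Median centring moved the median log2 fold change of all probe sets tested to 0.070, against -0.041. Ccn2, Ccn4, Amotl2, Ajuba and the dimmest tested probe set of Ccn1 stayed above 0 and short of the threshold in every alternative that measured them.

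Signs turned for values near 0. Tead1 1429556_at was -0.023 with array weights and between -0.07 and 0.21 with 1 array left out (-0.070 without hypoxia replicate 2, -0.0077 without hypoxia replicate 3). Tead1 1423434_at was 0.058 after quantile normalization, 0.050 after median centring, 0.042 after cyclic loess, and between -0.50 and 0.22 with 1 array left out. Yap1 1448363_at was 0.092 after median centring and between -0.14 and 0.11 with 1 array left out. Slmap was 0.11 after median centring and between -0.13 and 0.081 with 1 array left out. Acta2 was -0.012 after quantile normalization, -0.051 after cyclic loess, -0.025 with array weights, and between -0.012 and 0.18 with 1 array left out. Ccn1 1442340_x_at and Tead1 1423434_at gave no value with the filter at the 75th percentile. The cause of these shifts was not tested.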

Other observations

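The arrays of a group did not rank alike over the members. Among the 12 probe sets tested, hypoxia replicate 1 was the lowest hypoxia array for 8 and the highest for 0, while hypoxia replicates 2 and 3 were the highest for 5 and 7. In normoxia, replicate 1 was the highest array for 6 and the lowest for 4, replicate 2 the highest for 5 and the lowest for 6, and replicate 3 the highest for 1 and the lowest for 2. Normoxia replicate 1 was the highest normoxia array for the Ccn1 probe sets, Ccn2 and Ankrd1 and the lowest for both Ccn4 probe sets.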
